A study of Rattus norvegicus with 12 samples.

Results

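The shift of the axotomy response between day 3 and day 1 was measured in rat organotypic co-cultures, in which a slice of entorhinal cortex and one of hippocampus are kept alive together and entorhinal axons reach the hippocampus as they do in the animal. The day 3 arrays hold RNA of cultures severed after 15 days in vitro and kept for 3 more days, against RNA of non-axotomized cultures of the same age, and the day 1 arrays hold the same pair of samples at 1 day. The value described throughout is a difference of differences: the log2 ratio of axotomized over non-axotomized RNA at day 3 minus that ratio at day 1. It rests on 8 of the 12 arrays of the series, which are 2 biological replicates a day, each measured on 2 arrays with the dyes exchanged and averaged. A value above 0 means that the ratio was higher at day 3 than at day 1. It can come from a gene that is above its control at day 3, from a gene that was below its control at day 1, or from both, so the ratio of each day is given beside it.

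The perforant path, the bundle from the entorhinal cortex to the hippocampus, was cut with a knife along the border of the slices, per the labels. Such a cut disconnects the hippocampal dendrites from their entorhinal input and leaves axon stumps, degenerating axon fragments and myelin. Microglia and astrocytes are known to react first, with division, cytokines and phagocytosis, and oligodendrocyte precursors and matrix molecules follow in the denervated layers. Whether transcripts of these programs stood differently at day 3 and at day 1 is what the difference between the days can show.

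The species is Rattus norvegicus per the labels, although their account of the treatment speaks of mice, a conflict that is not settled here. No source used here says what a biological replicate was (a culture, a rat or pooled material), so the p-values measure only the spread between these samples. The ratios were read as axotomized over non-axotomized RNA, which titles and channel order make likely and nothing states. If it were the other way, every sign below would turn. The table holds ratios and no signal, so neuronal and glial markers could not be checked for their level and dim spots could not be filtered. The 2 dye-swapped arrays of a replicate correlated over all genes with r of 0.34 and 0.47 at day 3, and of 0.33 and -0.08 at day 1, replicate 2 of day 1 being the one below 0. The 2 biological replicates correlated with r of 0.40 at day 3 and 0.48 at day 1.

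No gene passed the test. With limma over all 14871 genes, fitted to all 6 biological replicates of days 1, 3 and 7 so that the days share 1 estimate of the spread, 0 genes (0.0%) had a Benjamini-Hochberg adjusted p under 0.05 for the difference between the days, and the smallest adjusted p was 0.0655. An unadjusted p under 0.05 was found for 1316 genes (8.85%), of which 629 (4.23%) had a difference above 0 and 687 (4.62%) below 0. The median difference over all genes was -0.0058 on the log2 scale, and the middle range of the genes ran from -0.061 to 0.046. A difference above 0 was found for 46.9% of all genes, the share against which counts of members above or below 0 are read. At an adjusted p under 0.10, the looser alternative threshold, there were 21 genes (0.141%), 17 with a difference above 0 (0.114%) and 4 below 0 (0.0269%). In an alternative fit that kept the arrays as separate values, with a term for the dye and the biological replicate as a random block, 290 genes, all of these 21 among them, had an adjusted p under 0.05. With a consensus correlation of 0.226, that fit counts the dye-swapped arrays of a replicate nearly as separate samples. The 21 have the smallest p for the same difference, so their place among the 290 is no independent evidence. All 21 are given here with the values of every replicate, as genes that did not pass, and each list of genes below is read against 4.23% and 4.62%.

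**Figure D1:**
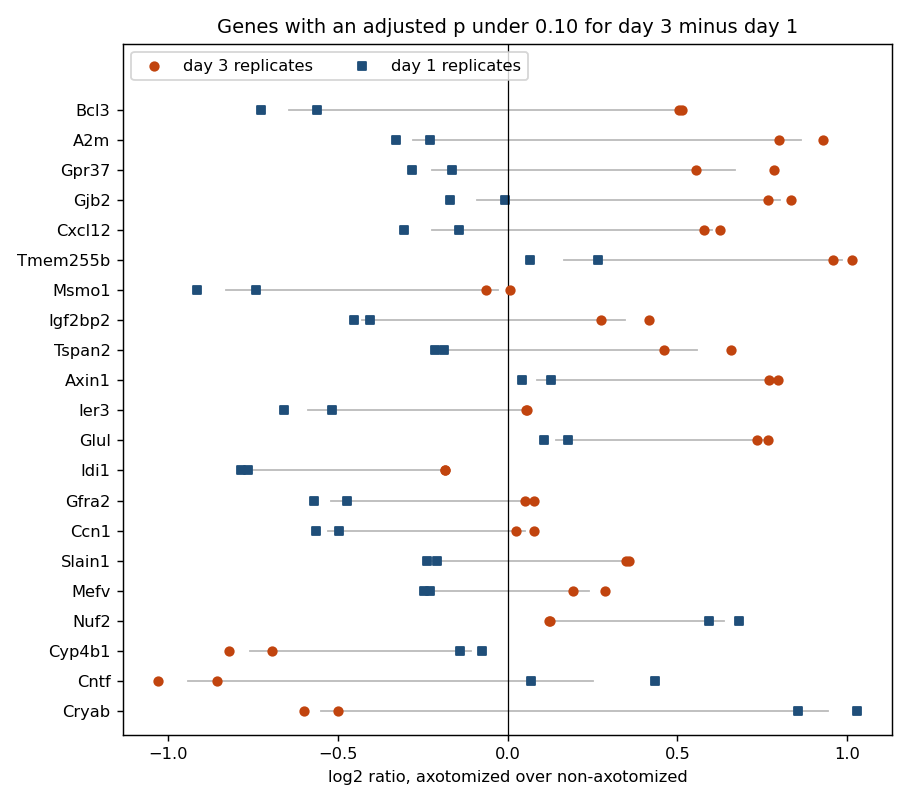
The log2 ratio of axotomized over non-axotomized RNA (horizontal axis) is plotted for the 21 genes with an adjusted p under 0.10, with round points for the 2 day 3 replicates, square points for the 2 day 1 replicates and a line between the 2 means. For every one of these genes the points of the days stand apart, as they do for 37.8% of all genes. The same holds for every gene at an unadjusted p under 0.05, so it goes with the choice by small p. The differences run from 1.15 for Bcl3, the highest, to -1.49 for Cryab, the lowest.

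Cryab, which encodes the small heat shock protein alphaB-crystallin of stressed astrocytes and oligodendrocytes, had the smallest p of all genes. Its log2 ratio was -0.60 and -0.50 in the day 3 replicates, against 1.03 and 0.86 in the day 1 replicates, a difference of -1.49 ± 0.11 (SE, n = 2 a day; limma adjusted p = 0.0655). Cryab thus stood below its control in both day 3 replicates and above it in both day 1 replicates, and its 95% interval ran from -1.78 to -1.21. Cntf, a neurotrophic cytokine made by astrocytes, had -0.85 and -1.03 at day 3, against 0.43 and 0.070 at day 1, with a difference of -1.19 ± 0.13 (limma adjusted p = 0.0914). Here too the sign was opposite on the 2 days, with a wider spread at day 1. Igfbp2, a binding protein of insulin-like growth factors, showed the same order with -0.50 and -0.55 at day 3 and 0.31 and 0.067 at day 1 (limma adjusted p = 0.124), but single arrays of the days overlapped. Cyp4b1, a cytochrome P450 enzyme, was below its control on both days and farther below at day 3, with -0.69 and -0.82 against -0.14 and -0.076 at day 1.

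In the other direction the smallest p belonged to Slain1, which encodes a protein of growing microtubule ends. Its ratio was 0.35 and 0.36 at day 3, against -0.21 and -0.24 at day 1, a difference of 0.58 ± 0.045 with a 95% interval from 0.46 to 0.69 (limma adjusted p = 0.0655). Its replicates differed by less than 0.05 within each day, a small part of the gap between the days. Igf2bp2, an RNA-binding protein of growing cells, had 0.28 and 0.42 at day 3, against -0.45 and -0.40 at day 1. Gjb2, the gap junction protein connexin 26, had 0.77 and 0.83 at day 3, against -0.17 and -0.0084 at day 1, so that nearly all of its difference of 0.89 ± 0.072 lay on the day 3 side. Gfra2, the receptor subunit that binds neurturin, was the reverse case, with 0.051 and 0.079 at day 3 and -0.47 and -0.57 at day 1: its day 3 values were close to the control and its day 1 values were below it. Tmem255b, a transmembrane protein, was above its control on both days, with 1.02 and 0.96 at day 3 and 0.27 and 0.065 at day 1.

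Cxcl12, the chemokine that guides cells through the receptor Cxcr4, had 0.58 and 0.63 at day 3, against -0.14 and -0.30 at day 1, a difference of 0.83 ± 0.077 (limma adjusted p = 0.0655). It is read by 2 spots from different transcript records, which differed in size, 0.49 and 1.16, but not in sign. Among the remaining genes at an adjusted p under 0.10, named here because the count is given in full, Axin1, a scaffold of beta-catenin breakdown, had 0.80 and 0.77 at day 3, against 0.13 and 0.042 at day 1. Tspan2, a tetraspanin of oligodendrocytes, had 0.66 and 0.46 at day 3, against -0.21 and -0.19 at day 1. Both stood above the control at day 3, whereas at day 1 Axin1 was near it and Tspan2 below it. Ier3, an early response gene, had 0.056 and 0.053 at day 3, against -0.52 and -0.66 at day 1, and Ccn1, a secreted matrix-associated protein, had 0.024 and 0.079 at day 3, against -0.50 and -0.56 at day 1. For these 2 genes the day 3 ratios were close to 0 and the distance from the control was at day 1. Mefv, which encodes the inflammasome sensor pyrin, had 0.29 and 0.19 at day 3, against -0.23 and -0.25 at day 1. The others, Bcl3, Idi1, Msmo1, Glul, A2m, Gpr37 and Nuf2, are described with their groups.

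The 17 genes with a difference above 0 were of both kinds: 10 were farther from the control at day 3 and 7 at day 1, and 12 had opposite signs on the 2 days. Of the 4 with a difference below 0, 2 were farther from the control at day 3 and 2 at day 1. Both kinds were also common at an unadjusted p under 0.05. Of the 629 such genes above 0, 405 were farther from the control at day 3, and 453 had opposite signs. Of the 687 below 0, 353 were farther at day 3, and 457 had opposite signs. The mix therefore does not set the genes at an adjusted p under 0.10 apart. RNA of whole cultures was measured, so fewer cells of a type and less RNA per cell cannot be told apart in any of these values.

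**Figure D2:**
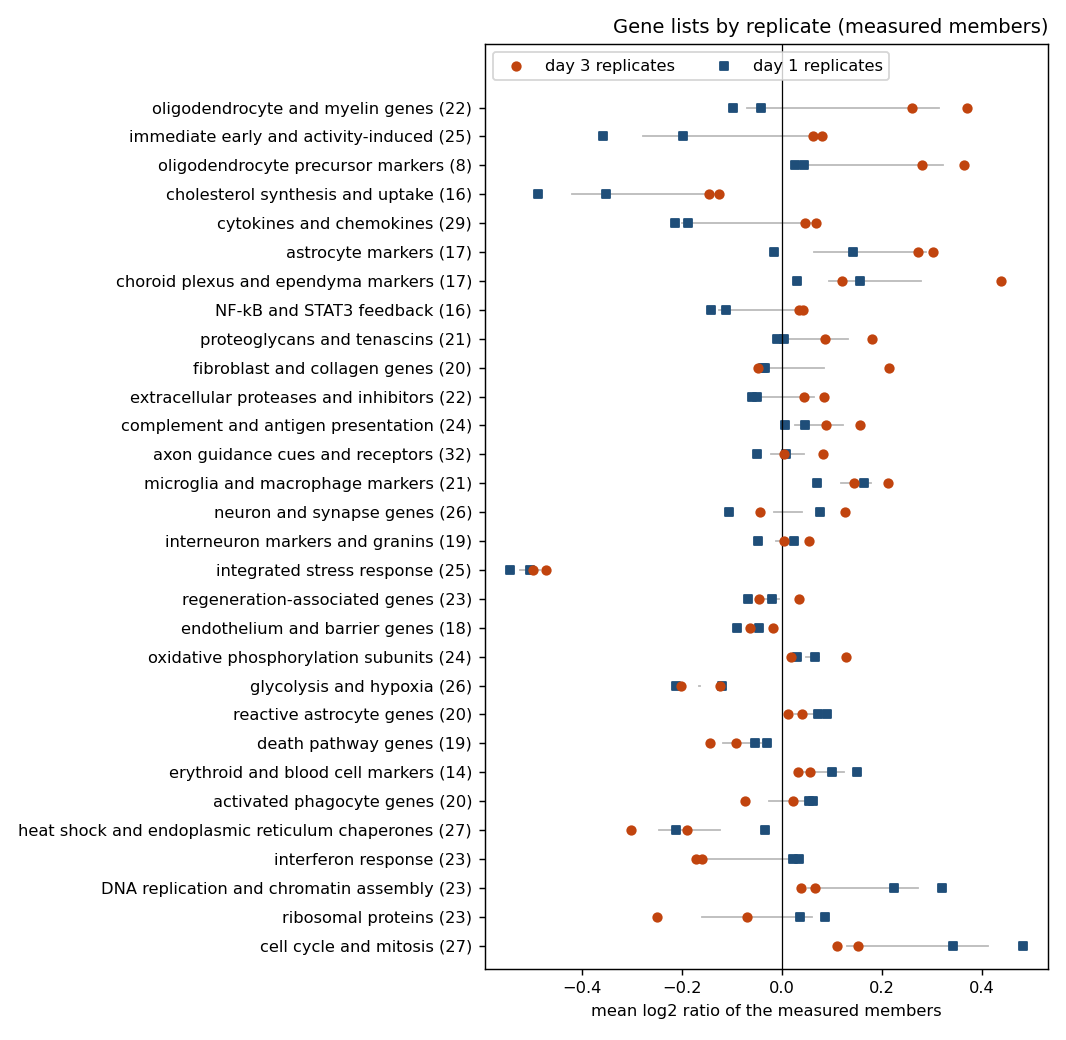
The mean log2 ratio over the measured members of each of 30 gene lists (number of members in brackets) is plotted for the 2 day 3 replicates (round) and the 2 day 1 replicates (square), with a line between the means of the days. Lists are ordered by the difference of the day means, from oligodendrocyte and myelin genes at 0.38 down to cell cycle and mitosis at -0.28.

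Dividing cells gave the group with the largest share of members at an unadjusted p under 0.05. Of 27 measured genes of cell cycle and mitosis, 25 had a difference below 0, and 18 (66.7%, against 4.62% of all genes) were below 0 at an unadjusted p under 0.05, with 0 above 0. The median difference was -0.28, against -0.0058 over all genes. The mean of the list was 0.15 and 0.11 in the day 3 replicates, against 0.48 and 0.34 in the day 1 replicates, so the average stood above the control on both days and nearer to it at day 3. Nuf2, a subunit of the kinetochore complex that holds chromosomes to spindle microtubules, had 0.13 and 0.12 at day 3, against 0.68 and 0.59 at day 1, a difference of -0.51 ± 0.051 (limma adjusted p = 0.066). Top2a, the topoisomerase that untangles replicated chromosomes, had 0.059 and 0.13 at day 3, against 0.58 and 0.51 at day 1 (limma adjusted p = 0.124), and both of its spots gave a difference below 0. Mki67, the standard marker of cycling cells, chosen after its values were seen, had 0.090 and 0.076 at day 3, against 0.33 and 0.42 at day 1.

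Genes of DNA replication and chromatin assembly ran the same way with smaller values. Of 23 measured, 21 had a difference below 0, 10 of them at an unadjusted p under 0.05 and 0 above 0, and the median was -0.21. Tcf19, a factor of entry into DNA synthesis, had 0.41 and 0.19 at day 3, against 1.24 and 0.92 at day 1, the lowest difference of the list at -0.78 ± 0.12 (limma adjusted p = 0.169). Hmgb2, a chromatin protein of proliferating cells, had 0.34 and 0.48 at day 3, against 0.89 and 0.94 at day 1. Pcna, the sliding clamp of DNA polymerase and likewise picked after the fact, had 0.014 and -0.15 at day 3, on both sides of the control, against 0.58 and 0.37 at day 1. The medians of both proliferation lists kept their sign in all 13 alternatives run on them, with the cell cycle median between -0.69 and -0.17 and the replication median between -0.24 and -0.11, the last without replicate 1 of day 1. The 13 include the random block and the fits without a day 7 replicate, which leave the medians as they are.

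The promoters of Nuf2 and Top2a are shown because their list had the most members at an unadjusted p under 0.05. They are the RefSeq sequence of build GRCr8 from 250 bases before to 50 bases after the gene's start, read along the gene's strand, at chr13:84255549-84255848 and chr10:84473044-84473343, both on the minus strand. Capitals mark the CHR core (TTTGAA, or TTCAAA on the other strand) and the CCAAT box (CCAAT, or ATTGG on the other strand), letter patterns known from promoters of cell cycle genes.
Nuf2: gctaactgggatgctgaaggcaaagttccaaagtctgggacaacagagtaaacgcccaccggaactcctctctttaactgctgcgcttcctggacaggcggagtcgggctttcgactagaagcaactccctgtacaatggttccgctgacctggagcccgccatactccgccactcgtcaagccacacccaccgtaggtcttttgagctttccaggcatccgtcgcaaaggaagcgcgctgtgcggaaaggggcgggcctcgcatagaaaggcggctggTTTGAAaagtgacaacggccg
Top2a: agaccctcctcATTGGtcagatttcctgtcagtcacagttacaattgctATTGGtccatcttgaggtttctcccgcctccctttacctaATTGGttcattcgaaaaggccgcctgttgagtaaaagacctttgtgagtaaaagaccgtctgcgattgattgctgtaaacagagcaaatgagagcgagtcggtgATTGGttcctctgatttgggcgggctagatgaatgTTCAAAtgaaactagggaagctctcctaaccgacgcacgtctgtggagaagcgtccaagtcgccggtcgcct
The Nuf2 window holds 1 CHR core, beginning 29 bases after the start, and the Top2a window holds 1 CHR core and 4 CCAAT boxes. Of the 23 members of the cell cycle list with a promoter in the RefSeq table, 15 (65.22%) held the CHR core, against 18.35% of all 33469 promoters, and 16 (69.57%) held the CCAAT box, against 37.49%. These are matches of letters and not measured sites.

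Genes of cholesterol synthesis and uptake had differences in the opposite direction. Of 16 measured, 15 had a difference above 0, and 8 (50%, against 4.23% of all genes) were above 0 at an unadjusted p under 0.05, with 0 below 0, the median being 0.26. On average the list was at -0.13 and -0.15 at day 3, against -0.49 and -0.35 at day 1, so the average was below the control on both days and closer to it at day 3. Without replicate 1 of day 1 the median was 0.17. Msmo1, an oxidase that removes methyl groups from the sterol ring, had -0.064 and 0.0059 at day 3, against -0.92 and -0.74 at day 1, a difference of 0.80 ± 0.077 (limma adjusted p = 0.0655). Idi1, the isomerase of the isoprenoid building blocks, had -0.18 and -0.19 at day 3, against -0.79 and -0.77 at day 1, with a difference of 0.59 ± 0.056 (limma adjusted p = 0.0655). Its replicates lay within 0.05 of each other on each day. Among further members picked after their values were seen, Insig1, the sterol sensor of the endoplasmic reticulum, had a difference of 0.51, Fdps, farnesyl diphosphate synthase, 0.48, and Sqle, squalene epoxidase, 0.31.

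The promoters of Idi1 and Msmo1, the members of this list with the smallest p, are shown in the same way, at chr17:66547475-66547774 on the minus strand and chr16:29746863-29747162 on the plus strand. Capitals mark the CHR core and the CCAAT box as above.
Idi1: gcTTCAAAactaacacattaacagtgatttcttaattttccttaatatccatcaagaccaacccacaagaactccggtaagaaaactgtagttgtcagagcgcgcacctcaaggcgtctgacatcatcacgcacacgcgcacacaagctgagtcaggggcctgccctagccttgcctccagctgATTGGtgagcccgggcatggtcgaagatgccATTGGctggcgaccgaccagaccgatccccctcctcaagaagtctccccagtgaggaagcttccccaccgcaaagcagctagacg
Msmo1: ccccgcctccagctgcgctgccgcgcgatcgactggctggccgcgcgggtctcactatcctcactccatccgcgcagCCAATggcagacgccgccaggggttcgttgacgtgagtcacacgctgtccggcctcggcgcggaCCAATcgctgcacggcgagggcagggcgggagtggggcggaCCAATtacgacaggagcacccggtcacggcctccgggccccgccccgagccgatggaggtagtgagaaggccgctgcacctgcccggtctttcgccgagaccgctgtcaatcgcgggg
The Idi1 window holds 2 CCAAT boxes and 1 CHR core and the Msmo1 window 3 CCAAT boxes. Of the 12 members with a promoter in the table, 10 (83.33%) held a CCAAT box, against 37.49% of all promoters, and 1 held the letters TCACCCCA (TGGGGTGA on the other strand), a core of sterol elements found in 1.374% of all promoters. Neither printed window holds those letters, nor the 2 other patterns searched on both strands, TGACGTCA (a cyclic AMP element) and TGATGCAA (a C/EBP-ATF site), which 1.829% and 0.7948% of all promoters hold.

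**Figure D3:**
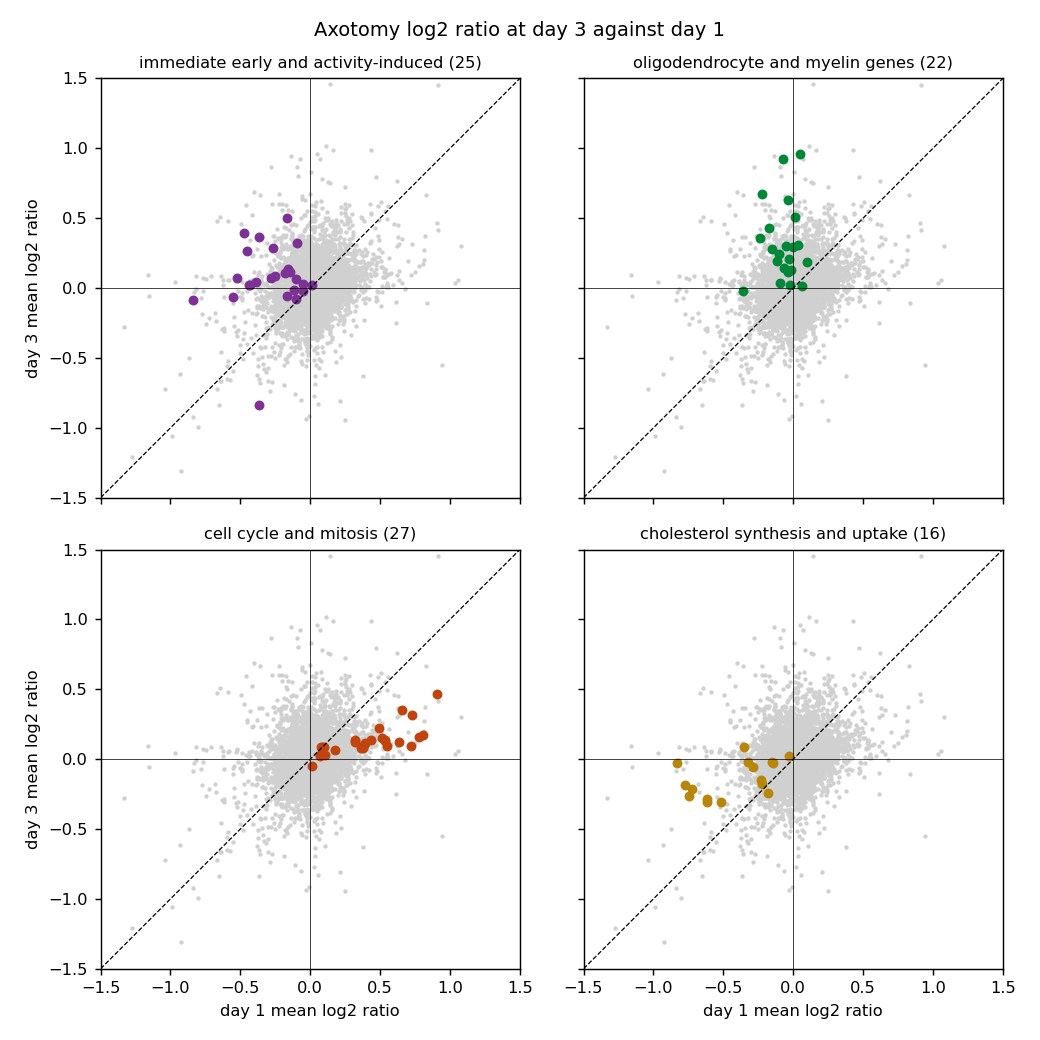
The mean log2 ratio at day 3 (vertical axis) is plotted against that at day 1 (horizontal axis) for all genes (grey) and for the members of 4 lists (coloured), with the line of equal ratios dashed and 2 genes outside the axes. Of the immediate early genes 24 of 25 lie above the line, of the myelin genes 21 of 22 and of the cholesterol genes 15 of 16, while 25 of the 27 cell cycle genes lie below it.

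Immediate early and activity-induced genes, which answer to firing, calcium and growth factors within minutes to hours, had a difference above 0 in 24 of 25 measured members. At an unadjusted p under 0.05, 12 (48%) were above 0 and 1 below 0, and the median was 0.35, the highest of the 30 lists. On average these genes were at 0.062 and 0.080 at day 3, just above the control, against -0.36 and -0.20 at day 1, below it. Egr1, a zinc finger factor induced by activity, had 0.44 and 0.34 at day 3, against -0.39 and -0.57 at day 1, with a difference of 0.87 ± 0.14 (limma adjusted p = 0.169). Gadd45g, a stress-induced regulator of growth arrest, had -0.17 and -0.0020 at day 3, against -0.92 and -0.77 at day 1, so that its distance from the control was at day 1. Jun, a subunit of the AP-1 factor, had 0.19 and 0.39 at day 3, against -0.23 and -0.31 at day 1, with a limma adjusted p of 0.174. The 1 member with a difference below 0 was Scg2, a granin that is stored in secretory vesicles, with -1.004 and -0.67 at day 3, against -0.54 and -0.19 at day 1.

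The integrated stress response, the program of the factor Atf4 that reacts to amino acid shortage and misfolded protein, had members on both sides. Of 25 measured members, 9 had a difference above 0 and 16 below 0. At an unadjusted p under 0.05 there were 2 in each direction (8%, against 4.23% of all genes above 0 and 4.62% below 0). The list's mean was nearly equal on the days, -0.47 and -0.50 at day 3 and -0.54 and -0.50 at day 1, all well below the control. Atf3, a transcription factor of this program and of injured neurons, had -0.27 and -0.29 at day 3, against -1.24 and -1.41 at day 1, a difference of 1.05 ± 0.27 (limma adjusted p = 0.329). Trib3, a pseudokinase target of Atf4 chosen after its values were seen, had -1.04 and -1.10 at day 3, against -2.22 and -2.21 at day 1. Its difference of 1.15 had an SE of 0.49, though its SDs were 0.042 at day 3 and 0.0069 at day 1. For Atf3 these SDs were 0.017 and 0.12. The fit pools the spread of all 3 days, so most of both SEs comes from the day 7 replicates. Phgdh, the first enzyme of serine synthesis, ran the other way with -0.19 and -0.26 at day 3 and 0.062 and 0.20 at day 1, but single arrays of the days overlapped.

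Inflammatory signals lay on both sides of 0. Among 29 measured cytokines and chemokines, 22 had a difference above 0, with 8 above 0 (27.6%) and 2 below 0 at an unadjusted p under 0.05. Their median was 0.069, while their mean was 0.26, with a range from -0.39 to 1.88. Without replicate 2 of day 3 the median was 0.14. Cxcl1, a chemokine that attracts neutrophils, had the largest difference of all members of the lists: 0.12 and -0.032 at day 3, against -1.74 and -1.93 at day 1, a difference of 1.88 ± 0.28 or 3.68-fold (limma adjusted p = 0.15). The day 3 ratios of Cxcl1 were close to 0 and both day 1 ratios were far below it. Ccl20, a chemokine read by Ccr6 and singled out after the values were seen, showed the same order, with 0.15 and 0.039 at day 3, against -1.07 and -1.25 at day 1. Il1b, the central cytokine of activated microglia, also chosen afterwards, had 0.34 and 0.14 at day 3, against -0.55 and -0.27 at day 1.

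Feedback genes of NF-kB and STAT3, the factors downstream of such cytokines, included 11 of 16 with a difference above 0, 6 of them (37.5%) at an unadjusted p under 0.05 and 0 below 0. Bcl3, an unusual member of the inhibitor family that binds NF-kB in the nucleus, had 0.51 and 0.51 at day 3, against -0.73 and -0.56 at day 1, a difference of 1.15 ± 0.13 (limma adjusted p = 0.0918). Nfkbia, the classical inhibitor and itself a target of NF-kB, had 0.19 and 0.14 at day 3, against -0.16 and -0.12 at day 1. In both genes every day 3 value was above the control and every day 1 value below it.

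Interferon response genes, which cells use against viral nucleic acid, mostly had the opposite sign. Of 23 measured, 20 had a difference below 0, 9 of them (39.1%, against 4.62% of all genes) at an unadjusted p under 0.05, with 1 above 0, and the median was -0.12. The list's mean was -0.16 and -0.17 at day 3, against 0.021 and 0.034 at day 1. Isg15, a ubiquitin-like modifier, had -0.78 and -0.83 at day 3, against 0.18 and 0.24 at day 1, a difference of -1.02 ± 0.15 (limma adjusted p = 0.15). Ifit2, which binds viral RNA complexes, had -0.40 and -0.39 at day 3, against -0.11 and -0.056 at day 1, below the control on both days. Its 2 spots gave differences of -0.050 and -0.58, so the value rests mostly on 1 of them. The 1 member above 0 at an unadjusted p under 0.05 was Ifi27, an interferon-induced mitochondrial protein, with a difference of 0.38.

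Complement and antigen presentation genes were above 0 in 14 of 24, and 5 (20.8%) of them had an unadjusted p under 0.05, with 0 below 0. Serping1, the inhibitor of the first complement component, had 0.14 and 0.17 at day 3, against -0.25 and -0.17 at day 1 (limma adjusted p = 0.141), and Cfd, the protease complement factor D, had 0.57 and 0.16 at day 3, against -0.076 and -0.34 at day 1. The spots of Serping1 differed in size, with 0.13, 0.18 and 0.80. The other 3 members at that p were C1r, C1s and C4a, the proteases that start the classical pathway and their substrate, with differences of 0.38, 0.30 and 0.24. C4a has a near-identical copy, C4b, that its spots could also bind. The antigen presentation members gave no value at an unadjusted p under 0.05.

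Markers of microglia and macrophages gave a share above 0 of 9.52%, against 4.23% of all genes. Of 21 measured, 2 were above 0 at an unadjusted p under 0.05 and 0 below 0, and the median difference was 0.026, with list means of 0.21 and 0.14 at day 3 and 0.071 and 0.16 at day 1, which overlap. Without replicate 1 of day 1 that median was -0.013, and without replicate 2 of day 1 it was 0.085. The 2 members were Fcgr2b, an inhibitory antibody receptor, with 0.16 and -0.23 at day 3 and -0.49 and -0.49 at day 1, and Itgam, the integrin CD11b, with 0.20 and 0.39 at day 3 and -0.075 and 0.12 at day 1. Of the 20 genes of activated phagocytes, 3 (15%, against 4.62% of all genes) were below 0 at an unadjusted p under 0.05. Above 0 at that p was 1 (5%, near the 4.23% of all genes). Lgals3, the lectin galectin-3 of phagocytes, had -0.80 and -0.86 at day 3, against 0.11 and 0.00095 at day 1, a difference of -0.88 ± 0.11 (limma adjusted p = 0.129). Cd63, a tetraspanin of lysosomes, had -0.16 and -0.30 at day 3, against 0.25 and 0.17 at day 1, and the third below 0 was Ctsd, the lysosomal protease cathepsin D, with a difference of -0.22. The 1 above 0 was Lpl, lipoprotein lipase, with 0.28.

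Astrocyte markers were mostly on the positive side. Of 17 measured, 14 had a difference above 0, 7 (41.2%, against 4.23% of all genes) at an unadjusted p under 0.05 and 0 below 0, and the list's mean was 0.30 and 0.27 at day 3, against -0.017 and 0.14 at day 1. Glul, glutamine synthetase, which clears synaptic glutamate, had 0.74 and 0.77 at day 3, against 0.11 and 0.18 at day 1, a difference of 0.61 ± 0.058 (limma adjusted p = 0.0655). Of its 3 spots, 2 gave differences of 0.81 and 1.07 and 1 gave -0.059, so the gene's value rests on 2 of them. Gjb2, given above, and Gjb6, the connexin 30 gene, with a difference of 0.37, are gap junction members at an unadjusted p under 0.05. A further gap junction member, Gja1, had 0.52 and 0.25 at day 3, against 0.16 and 0.46 at day 1. Its replicates overlapped between the days, and its difference was 0.076. Aqp4, the water channel of astrocyte endfeet, had a difference of 0.39. Gjb6, Gja1 and Aqp4 were chosen after their values were seen.

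Genes known from reactive astrocytes did not share a direction. Among 20 measured, 5 (25%, against 4.23% of all genes) were above 0 and 4 (20%, against 4.62%) below 0 at an unadjusted p under 0.05. The median was 0.0082. A2m, the protease inhibitor alpha-2-macroglobulin, an acute-phase protein in the rat, had 0.80 and 0.93 at day 3, against -0.23 and -0.33 at day 1, a difference of 1.14 ± 0.11 (limma adjusted p = 0.0655). The other 4 above 0 were the iron oxidase Cp, the intermediate filament Synm, the iron-carrier binder Lcn2 and the protease inhibitor Serpina3n, with differences of 0.33, 0.56, 0.50 and 0.36. Below 0 were Cryab, the metalloproteinase inhibitor Timp1, the intermediate filament Vim and the annexin partner S100a10. Timp1 had -0.18 and -0.028 at day 3, against 1.07 and 0.59 at day 1, and Vim had 0.077 and -0.28 at day 3, against 0.54 and 0.70 at day 1. The members with the highest mean ratios at day 1, Cryab, Timp1 and Vim, were thus near or below the control at day 3. Synm, which came next at day 1 with 0.42 and 0.44, went the other way, to 1.04 and 0.94 at day 3.

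In the oligodendrocyte lineage most differences were above 0. Of 22 measured oligodendrocyte and myelin genes, 21 had a difference above 0 and 13 (59.1%, against 4.23% of all genes) had it at an unadjusted p under 0.05, with 0 below 0 and a median of 0.33. The list's mean was 0.37 and 0.26 at day 3, against -0.097 and -0.042 at day 1, so the average was farther from the control at day 3. Gpr37, a receptor of maturing oligodendrocytes, had 0.78 and 0.56 at day 3, against -0.28 and -0.16 at day 1, a difference of 0.89 ± 0.096 (limma adjusted p = 0.0914). Bcas1, a protein of newly forming myelinating cells, had 1.08 and 0.76 at day 3, against -0.17 and 0.021 at day 1, a difference of 1.00 ± 0.15 or 2.00-fold (limma adjusted p = 0.15). All 3 Bcas1 spots had a difference above 0, between 0.46 and 1.62. Myrf, the factor that turns on myelin genes, and Enpp6, an enzyme of newly formed oligodendrocytes, both chosen after their values were seen, had differences of 0.34 and 0.59.

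All 8 measured markers of oligodendrocyte precursors had a difference above 0, 3 of them (37.5%, against 4.23% of all genes) at an unadjusted p under 0.05. Their median was 0.20, and it was 0.30 without replicate 1 of day 1. Sox10, the lineage factor that the oligodendrocyte list also holds, had 0.69 and 0.57 at day 3, against -0.16 and 0.081 at day 1 (limma adjusted p = 0.169). Pdgfra, the growth factor receptor of precursors, had 0.50 and 0.74 at day 3, against 0.19 and -0.11 at day 1, with single arrays of the days overlapping. Cspg4, the proteoglycan NG2 of these cells, was the third, with 0.33 and 0.76 at day 3, against -0.042 and 0.11 at day 1. In all 3 the 2 day 3 values were above both day 1 values, but 37.8% of all genes had no overlap between the days, in either direction. Olig2, the founding factor of the lineage, had a difference of 0.024.

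**Figure D4:**
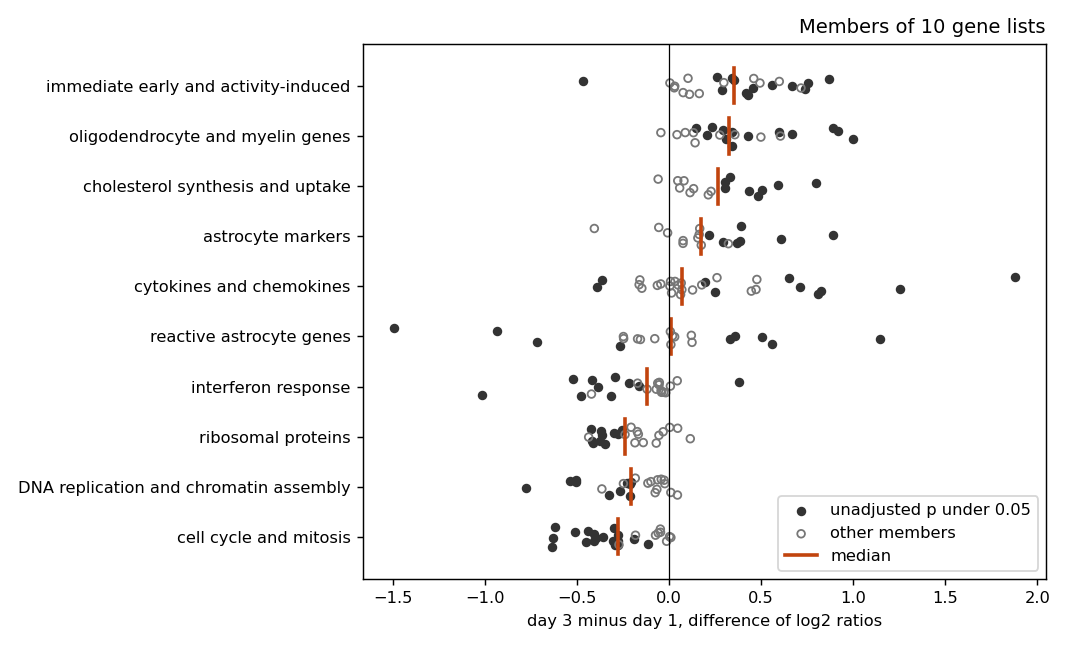
The difference of log2 ratios, day 3 minus day 1 (horizontal axis), is plotted for every measured member of 10 gene lists, filled where the unadjusted p was under 0.05, with the list's median as a vertical bar and a random vertical offset. The 5 lists at the top have medians between 0.069 and 0.35, the reactive astrocyte genes spread from -1.49 to 1.14, and the 4 lists at the bottom have medians below 0.

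Neuronal genes gave a share near that of all genes. Of 26 measured neuron and synapse genes, 1 (3.85%) was above 0 at an unadjusted p under 0.05 and 0 below 0. It was the postsynaptic scaffold Dlg4, with -0.033 and 0.0088 at day 3 and -0.27 and -0.16 at day 1, though its 2 spots gave 0.33 and 0.079. Nefl, the light neurofilament, had the next smallest p, with 0.21 and 0.066 at day 3 and -0.24 and 0.0039 at day 1. Single arrays of the days overlapped for Dlg4 and Nefl. The list's mean varied more between replicates, -0.045 and 0.13 at day 3 and -0.11 and 0.076 at day 1, than between the days. Of 19 interneuron markers and granins, 2 (10.5%, against 4.23% of all genes) were above 0 and 1 (5.26%, against 4.62%) below 0 at an unadjusted p under 0.05. Penk, the enkephalin precursor, had 0.23 and 0.39 at day 3, against -0.25 and -0.098 at day 1, though its 2 spots gave 0.94 and 0.038. Cck, the neuropeptide cholecystokinin, had a difference of 0.32, and Scg5, a chaperone of neuropeptide processing, was below 0 with -0.054 and -0.31 at day 3 and 0.14 and 0.080 at day 1. For Scg5 single arrays of the days overlapped.

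Among 23 genes known to accompany axon regeneration, 5 (21.7%, against 4.23% of all genes) were above 0 and 2 (8.70%, against 4.62%) below 0 at an unadjusted p under 0.05. Those above were Jun and Atf3, given above, and Klf6, Dpysl2 and Marcks, with differences of 0.44, 0.19 and 0.24, a zinc finger factor of axon growth, a tubulin-binding protein of growth cones and an actin-binding membrane protein. Those below were Cntf and the neuropeptide Gal, which had -0.14 and -0.37 at day 3, against 0.90 and 0.33 at day 1. Axon guidance cues and receptors had a difference above 0 in 23 of 32, 4 (12.5%) of them at an unadjusted p under 0.05, with 0 below 0 at that p. Ephb1, a receptor of membrane-bound ephrins, had 0.29 and 0.43 at day 3, against -0.16 and -0.12 at day 1, a difference of 0.50 ± 0.071 (limma adjusted p = 0.143), with opposite signs on the 2 days. Sema5a, a semaphorin, had 0.15 and 0.13 at day 3, against -0.014 and -0.098 at day 1, and its spots gave differences of 0.080, 0.013, 0.38 and 0.30. The other 2, Sema3e and the myelin glycoprotein Omg, had 0.16 and 0.25.

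In the extracellular matrix, 18 of 21 proteoglycans and tenascins had a difference above 0, 5 (23.8%) of them at an unadjusted p under 0.05. Bgn, the small proteoglycan biglycan, had 0.62 and 1.04 at day 3, against -0.058 and 0.070 at day 1, and Has2, which makes hyaluronan, had -0.040 and 0.13 at day 3, against -0.34 and -0.63 at day 1. Of 22 extracellular proteases and inhibitors, 17 had a difference above 0, and at an unadjusted p under 0.05 there were 6 above 0 (27.3%) and 1, Timp1, below 0. Tfpi2, an inhibitor of serine proteases, had -0.056 and 0.21 at day 3, against -0.84 and -0.69 at day 1 (limma adjusted p = 0.143). Fibroblast and collagen genes had a difference above 0 in 15 of 20, and at an unadjusted p under 0.05 there were 5 above 0 (25%) and 1, Igfbp2, below 0. Igf2, the insulin-like growth factor of meninges and choroid plexus, had 0.35 and 0.84 at day 3, against -0.30 and -0.25 at day 1.

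Markers of the choroid plexus, a tissue that can lie at the edge of such slices, varied with the replicate. Sostdc1 had 0.34 and 2.57 at day 3 and -0.012 and 0.29 at day 1, and Ttr, the transthyretin made in bulk by that tissue, had 0.73 and 2.18 at day 3 and -0.021 and 1.86 at day 1, so replicate 2 was the higher on both days. Both genes were chosen after their values were seen. Of the 17 markers of choroid plexus and ependyma, 11 had a difference above 0 and 6 below 0, with 1 in each direction at an unadjusted p under 0.05. The list's mean was 0.12 and 0.44 at day 3, against 0.031 and 0.16 at day 1. The member below 0 at that p was Igfbp2, given above, with -0.71, the smallest p of the list. The member above 0 was Enpp2, the secreted enzyme autotaxin, which is also made by oligodendrocytes, with 0.65 and 1.28 at day 3, against 0.034 and 0.058 at day 1. Without replicate 2 of day 3 the median of this list was 0.013 in place of 0.12, and that of the fibroblast and collagen genes 0.011 in place of 0.068. The part of these markers in the values of Igf2, Bgn, Enpp2 and the collagens, which were all higher in replicate 2 of day 3, was not tested. Of 14 blood cell markers, 9 had a difference below 0, 2 of them (14.3%, against 4.62% of all genes) at an unadjusted p under 0.05. They were Hbb-b1, a beta-globin, with 0.12 and -0.0086 at day 3, against 0.78 and 1.34 at day 1, and the neutrophil protein S100a9, with a difference of -0.18. The sign of S100a9 turned with the dye in every replicate, and its single arrays overlapped between the days. The globin family shares sequence, and the other beta-globin entry, Hbb, had -0.0074. Of 18 endothelial genes, 13 had a difference above 0 and 5 below 0, while 46.9% of all genes had one above 0. The only one at an unadjusted p under 0.05 was the drug transporter Abcb1a, below 0, with -0.80 and -0.66 at day 3 and -0.41 and -0.17 at day 1, and Kdr, a receptor of vascular growth factor, was next with -0.12 and 0.42 at day 3 and -0.35 and -0.20 at day 1. Its difference of 0.43 was 0.15 without replicate 2 of day 3 and 0.70 without replicate 1 of day 3.

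Ribosomal protein genes had a difference below 0 in 20 of 23, and 10 (43.5%, against 4.62% of all genes) of them had an unadjusted p under 0.05, with a median of -0.24. Averaged over the list, the ratio was -0.070 and -0.25 at day 3, against 0.086 and 0.036 at day 1, so the day 3 replicates were far apart. Without replicate 1 of day 3 the median was -0.36, and without replicate 2 it was -0.11. Rpl4 had -0.26 and -0.42 at day 3, against 0.10 and 0.065 at day 1 (limma adjusted p = 0.158), and Rps20 had -0.19 and -0.31 at day 3, against 0.17 and 0.083 at day 1. Ribosomal protein genes have many processed pseudogenes of nearly the same sequence, to which these spots could also bind.

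Genes of energy supply and protein folding gave shares nearer to those of all genes. Of 26 genes of glycolysis and hypoxia, 12 had a difference above 0 and 14 below 0, close to the 46.9% above 0 over all genes. At an unadjusted p under 0.05 there was 1 below 0, the glycolytic kinase Pgk1 with -0.19, and 1 above 0, the peptide hormone Adm with 0.55. Oxidative phosphorylation gave 1 of 24 at an unadjusted p under 0.05, the electron carrier Cycs with 0.14, the next being Ndufa1, a subunit of complex I, with 0.11. Heat shock and endoplasmic reticulum chaperones had a difference below 0 in 19 of 27, and at an unadjusted p under 0.05 there were 4 below 0 (14.8%) and 2 above 0. Besides Cryab, the 4 included Dnajb9, Canx and Dnajc3 of the endoplasmic reticulum, with -0.18, -0.18 and -0.36, and the 2 above were the cytosolic Bag3 and Hspa1b, with 0.28 and 0.24. Among 19 genes of cell death pathways, 14 had a difference below 0, 3 of them (15.8%, against 4.62% of all genes) at an unadjusted p under 0.05. They were the inflammatory protease Casp1, with 0.060 and -0.045 at day 3 against 0.47 and 0.26 at day 1, and the death inducers Bbc3 and Hrk, with differences of -0.22 and -0.54. The 1 above 0 at that p was Tnfrsf1a, a receptor of tumour necrosis factor, with 0.18. Single arrays of the days overlapped for Pgk1, Ndufa1, Casp1 and Bbc3.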

How the data were processed

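Each array's column in the table deposited by the authors is a log2 ratio of its 2 channels, made with limma per the submitters' processing notes. No source used here gives the version, the background correction, the normalization or the log base, which was taken as 2 because limma works in it. Column medians lay between -0.022 and 0.027. The probes' genome build is not stated either. Ratios carry no signal, and what limits the precision was not tested.

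Of 44290 spots, 23535 have 1 gene symbol in the annotation given with the table, 48 have several and 20707 have none. Spots of a gene and dye-swapped arrays of a replicate were averaged, giving 14871 genes, 5658 of them with 2 or more spots. Day 3 minus day 1 was tested with limma 3.58.1 in R 4.3.3 (two-sided, Benjamini-Hochberg over all genes) on the 6 replicates, with 3 residual and 2.72 prior degrees of freedom. Errors are limma's SE. On simulated data, 85% of 100 genes moved by 0.5 and 99% of 100 moved by 1 were recovered, with 13 false among 197 calls. The simulated noise was independent and normal, with limma's moderated variances. It checks the procedure and does not give the power in the real data, where 0 genes passed.

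Named were 6 genes in each direction, those of smallest p, and 2 members of each of 30 lists, and 648 of 701 list entries were measured. The members and lists were chosen with earlier results of these data known. Since no gene passed, the promoters shown come from lists with many members at an unadjusted p under 0.05, chosen after the values were seen. The alternatives are given in the closing section. Python 3.11.15 and matplotlib 3.10.9 were used for figures.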

Additional observations from a re-analysis of the deposited data

Results flagged for a closer look

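Groups of 2 replicates allow no outlier test, and no spot without a gene passed the threshold. Singled out here are named genes and lists whose ratio had 1 sign in both day 3 replicates and the other sign in both day 1 replicates. This pattern was seen in 29 of the 63 named genes and 7 of the 30 lists. Over all genes, 4.55% were above 0 at day 3 and below 0 at day 1, and 5.71% the other way round. The named genes were picked by small p for this same difference, so their share is no independent evidence, and in limma none of the differences passed an adjusted p under 0.05.

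Genes above their control at day 3 and below it at day 1 had these differences. Among those with the smallest p, Slain1 had 0.58, Igf2bp2 0.77, Gjb2 0.89, Gfra2 0.59 and Cxcl12 0.83. Among signalling and inflammatory genes, Egr1 had 0.87, Jun 0.56, Bcl3 1.15, Nfkbia 0.31, Serping1 0.37 and Cfd 0.57. Among glial, neuronal and guidance genes, A2m had 1.14, Gpr37 0.89, Penk 0.49, Ephb1 0.50, Sema5a 0.19 and Igf2 0.87. These signs are those of the mean of a gene's spots. At day 1 a Cxcl12 spot was at 0.0087, a Penk spot at 0.047 and Sema5a spots at 0.0012 and 0.050, so for these genes only part of the spots was below the control.

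Genes below their control at day 3 and above it at day 1 were Cryab with -1.49, Cntf with -1.19, Igfbp2 with -0.71 and Timp1 with -0.94. The interferon gene Isg15 had -1.02, and the phagocyte genes Lgals3 and Cd63 had -0.88 and -0.44. Smaller values were those of Phgdh (-0.36), Scg5 (-0.29), S100a9 (-0.18), Rpl4 (-0.43) and Rps20 (-0.37). For Igfbp2, Phgdh, Scg5 and S100a9 single arrays of the days overlapped. On both days S100a9 was below 0 on every array with axotomized RNA in Cy5 and above 0 on every array with it in Cy3.

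The 7 lists, by the difference of their means, were oligodendrocyte and myelin genes (0.38), immediate early and activity-induced genes (0.35), cytokines and chemokines (0.26), NF-kB and STAT3 feedback genes (0.17) and extracellular proteases and inhibitors (0.12), all above 0 at day 3, and interferon response genes (-0.19) and ribosomal proteins (-0.22), both below 0 at day 3. List means were not tested.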

How the results depend on the processing

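The count of genes past an adjusted p under 0.05, which was 0 (1316 at an unadjusted p under 0.05), was also 0 with the replicate block, with each array centred on its median, with quantile normalization over the spots with a gene (an alternative added after seeing the data), with the Cy3 orientation alone, with the median of a gene's spots, with robust empirical Bayes and with each of the 44290 spots tested alone. It was 4 with days 1 and 3 alone in the fit, 2 with the Cy5 orientation alone, 91 with quantile normalization over all spots, 290 with separate arrays, the replicate as a random block and a dye term, and 21 at the looser threshold of 0.10. Leaving out 1 replicate gave 0 to 4 genes: 1 without day 1 replicate 1, 4 without day 1 replicate 2, 2 without day 3 replicate 1, 0 without day 3 replicate 2 and 4 without either day 7 replicate. Of the 91 genes, 17 were among the 21 with an adjusted p under 0.10, and of the 290 all 21. The consensus correlation of dye-swapped arrays was 0.226, so the fit with 290 genes counted them nearly as separate samples. On 733 spots, 731 of them without a gene, the ratio's dye-dependent component exceeded 1. The part of these spots in the 91 was not tested, since the quantile normalization that gave 0 genes left out all spots without 1 symbol. Same-numbered replicates of days 1 and 3 deviated together with r of 0.257, those of days 1 and 7 with -0.068 and those of days 3 and 7 with 0.014. These values do not settle whether the numbers pair the samples of days 1 and 3. The main fit did not take them as pairs, and the replicate block is the check on that choice. None of the 63 named genes turned its sign in 17 alternatives, but most of these could not turn one. The fits that changed only the blocks, the estimate of the spread, the threshold or the use of day 7 leave the difference as it is. In every named gene the replicates of the days do not overlap, so leaving out 1 of them cannot turn the sign. Only the normalizations, the single dye orientations and the median of a gene's spots could have done so. Among list medians, those of cell cycle, DNA replication, cholesterol, immediate early, oligodendrocyte, astrocyte, interferon and ribosomal genes kept their sign in all 13 alternatives run on them. Of the 13, the random block and the fits without a day 7 replicate leave every median unchanged and could not turn it. The medians of the neuron, interneuron, glycolysis and reactive astrocyte lists turned in 3 each and that of the blood cell list in 2. That of microglia turned without day 1 replicate 1, of regeneration genes without day 3 replicate 2 (-0.021), of oxidative phosphorylation without day 3 replicate 1 (-0.039) and of activated phagocyte genes with only the Cy5 arrays (0.0041). With only the Cy3 arrays the complement median was -0.0087, and with only the Cy5 arrays the stress response median was 0.037; for both the cause was not tested.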
